A study of Oryctolagus cuniculus with 4 samples.

Results

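MYOC, SOD3, CLU and APOD, which encode 4 secreted proteins, were followed across intact semitendinosus tendons of New Zealand White rabbits. They are 4 of the 20294 genes in the deposited transcript table and were selected on their measured levels and on their differences between these same tendons. Levels and differences between tendons are therefore given as descriptions, and no difference is tested. The semitendinosus is a hamstring tendon taken as a graft in knee ligament reconstruction. Each of 4 female rabbits, 193 days old, gave 1 tendon, and all 4 tendons form 1 group that received no treatment named in the labels. The labels speak of both allografts and autografts, and the sample descriptions of intact tissue. Muscle was removed from the tendon surface with a scalpel before freezing, and the whole tendon was ground, so the values average over every cell type left in it.

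Myocilin (MYOC) is a glycoprotein with an olfactomedin domain, best known from the outflow tissue of the eye, where glucocorticoids induce it and where mutant protein causes glaucoma. Extracellular superoxide dismutase (SOD3) is a copper and zinc enzyme that turns superoxide into hydrogen peroxide and is held in the matrix by heparan sulfate and collagen. Clusterin (CLU) is an extracellular chaperone that keeps unfolded proteins in solution and blocks the terminal complement complex. Apolipoprotein D (APOD) is a lipocalin, a small barrel-shaped carrier of lipids such as arachidonic acid, made by fibroblasts and by cells around nerves.

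Library totals ran from 19759696 to 30646052 estimated counts, and 3 counts correspond to 0.0979 to 0.152 CPM, the count scaled to the library total. TPM, which also corrects for transcript length, is the scale for levels below. Among 8729 genes averaging 10 TPM or more, the median gene stood 0.07 above its own 4-tendon mean in tendon 1 and at -0.08 in tendon 2 (log2 TPM), so differences of that size between tendons can come from the scale. Tendon markers with an entry were present, beside skeletal muscle genes at similar levels. COL1A1 and COL1A2, the chains of type I collagen, had means of 8270 and 8636 TPM, and the tendon genes TNMD and MKX had 136 and 113 TPM. TNMD fell to 31.7 TPM in tendon 3. The muscle actin gene ACTA1 had a mean of 7547 TPM. In tendons 2, 3 and 4 it had 13182, 6218 and 7864 TPM, above COL1A1 at 8838, 3672 and 5354 TPM. SCX and COMP had no entry under those symbols.

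The 3 genes MYOC, SOD3 and CLU were among the most abundant transcripts of the tendon, and APOD was not. MYOC ranked 13th by mean TPM of the 13225 genes with a symbol, CLU ranked 35th and SOD3 43rd, while APOD ranked 4811th. MYOC was 6th by mean CPM and 7th in TPM without mitochondrially encoded genes. Summed over the 4 genes, their share of TPM was 0.924% in tendon 1, 1.01% in tendon 2, 1.79% in tendon 3 and 0.908% in tendon 4, which averages to 1.16% ± 0.424 (SD, n = 4). MYOC made up 65.5%, 71.1%, 66.8% and 52.7% of that sum. The label of the group as abundant therefore holds for 3 of its 4 genes in these libraries.

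**Figure D1:**
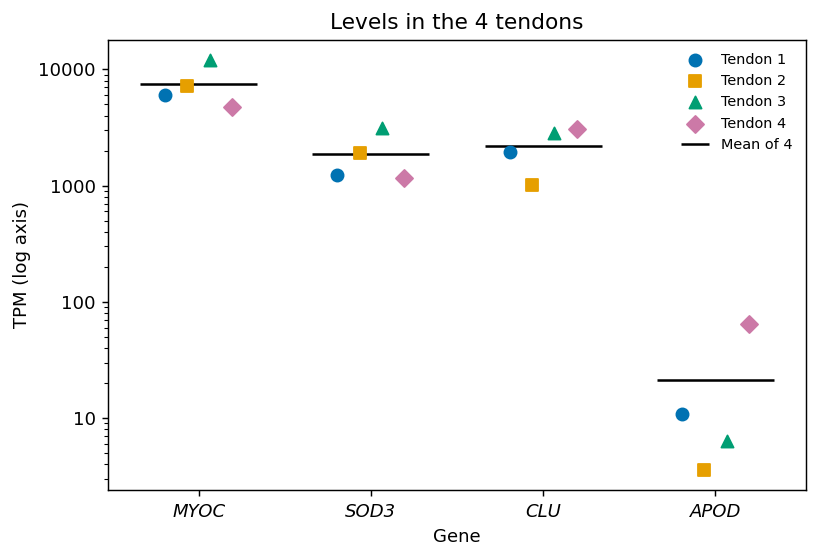
TPM (log axis) of MYOC, SOD3, CLU and APOD in tendons 1 to 4, 1 point per tendon, with the mean of 4 as a bar. MYOC lay between 4786 and 11961 TPM and APOD between 3.60 and 64.6 TPM, with tendon 3 highest for MYOC and SOD3 and tendon 4 highest for CLU and APOD.

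MYOC (ENSOCUG00000015957.3, OryCun2.0 chromosome 13, 21156847 to 21167181, forward strand) has a single annotated transcript of 2465 bases. Its level was 6056 TPM in tendon 1, 7204 in tendon 2, 11961 in tendon 3 and 4786 in tendon 4. Tendon 3 stood above the other 3 tendons, 1.66-fold over the next, and tendon 4 was lowest. The mean was 7502 ± 3133 TPM (SD, n = 4), close to skeletal muscle actin, ACTA1, at 7547 ± 4281 TPM and to the mitochondrial gene CYTB at 7056 ± 1168 TPM, which stood next above and next below it. Within single tendons MYOC ranked 16th, 15th, 6th and 18th among genes with a symbol. Between 149197 and 451444 estimated counts per tendon lay behind these levels, so counting error was small against the spread.

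SOD3 (ENSOCUG00000007460.2, chromosome 2, 15391093 to 15391827, forward strand) is annotated as 1 uninterrupted block of 735 bases, the shortest model of the 4. It had 1237, 1910, 3132 and 1170 TPM in tendons 1 to 4. As for MYOC, tendon 3 was highest and tendon 2 came next, and tendons 1 and 4 were both low. The mean of 1862 ± 910 TPM (SD, n = 4) lay between ND4L, a mitochondrial gene that swung from 5.55 to 4328 TPM (1890 ± 2222 TPM), and FN1, the gene of the matrix protein fibronectin, at 1838 ± 245 TPM. Without length correction SOD3 had 460, 783, 1291 and 481 CPM and ranked 115th, so its place among the most abundant genes depends on dividing by its short length. On that scale tendons 1 and 4 changed places.

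CLU (ENSOCUG00000005985.3, chromosome 2, 42058742 to 42075769, forward strand, 1 transcript of 1797 bases) had 1941, 1012, 2815 and 3059 TPM in tendons 1 to 4. Here tendon 2 was lowest and tendons 3 and 4 were both high, 1.09-fold apart. The mean was 2207 ± 930 TPM (SD, n = 4), between RPL23, a ribosomal protein gene, at 2383 ± 157 TPM and CA3, a carbonic anhydrase gene of slow muscle and fat, at 2203 ± 793 TPM. CLU ranked 36th, 82nd, 31st and 31st within the 4 tendons, and 35th by mean CPM as well as by mean TPM.

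APOD (ENSOCUG00000023599.2, chromosome 14, 91226177 to 91251611, reverse strand, 1 transcript of 1898 bases) was measured at 10.9, 3.60, 6.37 and 64.6 TPM in tendons 1 to 4. Tendon 4 stood 5.95-fold above tendon 1, the next highest, and the mean of 21.4 ± 29.0 TPM (SD, n = 4) describes none of the tendons well. Estimated counts were 206, 117, 185 and 2061. The exact Poisson 95% interval of the lowest, 96.8 to 140 counts, and that of tendon 4, 1973 to 2152 counts, do not overlap, though these cover counting error only. As deposited, with no tolerance allowed, the APOD estimates were not whole numbers in any tendon, while those of SOD3 and CLU were whole in all 4. The rounding of the deposited values leaves no decimals at the size of the MYOC counts. Such estimates divide reads that match several transcripts, and the part of shared reads in the APOD level was not tested. In rank APOD went from 8454th in tendon 2 to 1662nd in tendon 4.

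**Figure D2:**
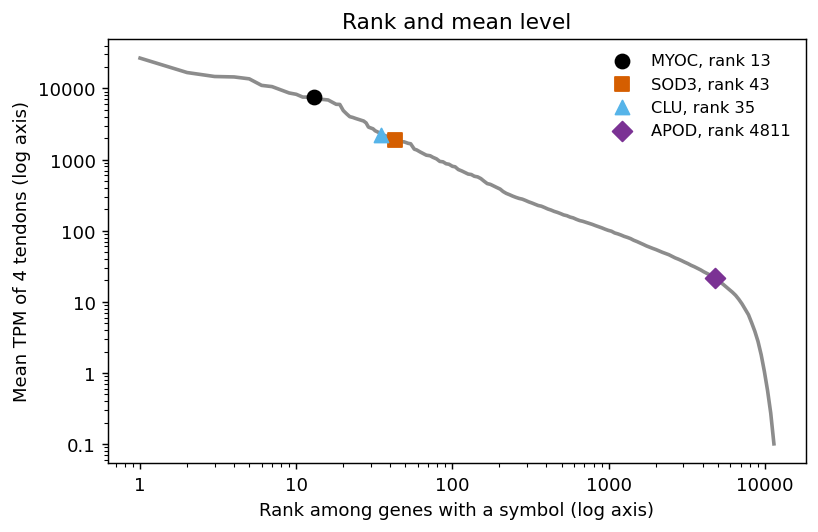
Mean TPM of 4 tendons (log axis) against rank (log axis) for genes with a symbol (grey line), with the 4 genes as points. MYOC, CLU and SOD3 sit at ranks 13, 35 and 43, and APOD at rank 4811 with 21.4 TPM.

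All 4 genes had a highest tendon at least 2-fold above the lowest, which 10.8% of the 8729 genes also had. They were selected for such differences, so nothing is read from that count. The fold range was 2.50 for MYOC, 2.68 for SOD3, 3.02 for CLU and 18.0 for APOD, against a median of 1.35 over all 8729 genes. Of the 132 genes averaging 1000 TPM or more, 25.0% reached 2-fold. A range of at least 10-fold, as APOD had, was found for 0.813% of the 8729 genes. Without tendon 4 APOD averaged 6.95 TPM, under the filter of 10 TPM. It enters the 8729 genes only through the tendon that makes its range, so nothing is read from that share. Each of these ranges rested largely on 1 tendon. Without tendon 3 the range fell to 1.51 for MYOC and 1.63 for SOD3, without tendon 2 to 1.58 for CLU, and without tendon 4 to 3.02 for APOD.

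**Figure D3:**
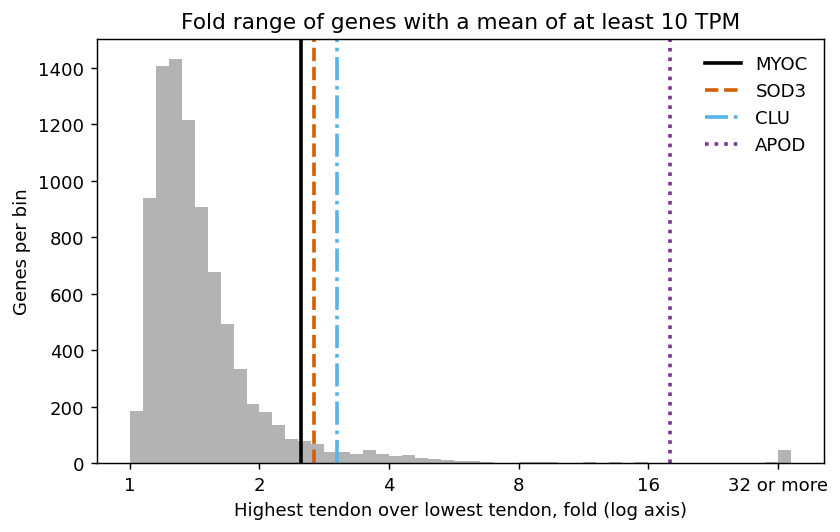
Number of genes per bin of the fold range, the highest tendon over the lowest (log axis), for 8729 genes averaging 10 TPM or more (grey bars), with the 4 genes as vertical lines. The median gene had 1.35, and the lines stand at 2.50, 2.68, 3.02 and 18.0.

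The biological coefficient of variation, the spread between tendons beyond counting error as edgeR estimates it per gene, was 0.348 for MYOC, 0.389 for SOD3, 0.359 for CLU and 0.851 for APOD. Of 12710 genes, 88.2%, 91.9%, 89.4% and 99.4% had a smaller one. These values come from the same tendons that the selection used and are a description.

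In TPM, MYOC and SOD3 followed the same order of tendons, 3 above 2 above 1 above 4. Of the 8729 genes, 1.25% had that order in TPM, and 2.66% in CPM scaled by TMM, the normalisation of edgeR. In unscaled CPM, SOD3 had tendon 4 above tendon 1, at 481 and 460. Its TPM in tendons 4 and 1, 1170 and 1237, is close enough for their order to come from the scale. Nothing is read from the shared order or from these shares. The MYOC to SOD3 ratio of TPM was 4.90, 3.77, 3.82 and 4.09 in tendons 1 to 4, a mean log2 ratio of 2.04 ± 0.17 (SD, n = 4). The other pairs held no such steady ratio. MYOC exceeded CLU 3.12-, 7.12-, 4.25- and 1.56-fold (mean log2 ratio 1.80 ± 0.91). SOD3 was above CLU in tendon 2 (1.89-fold) and tendon 3 (1.11-fold) and below it in tendons 1 and 4 (0.637- and 0.382-fold). The mean log2 ratio of SOD3 to CLU, -0.24 ± 1.00, was smaller than its spread, so these neighbours in the order of levels did not differ beyond it. APOD was far below the other 3 in all 4 tendons, by 47.3-fold against CLU and 18.1-fold against SOD3 where the gap was smallest, in tendon 4.

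**Figure D4:**
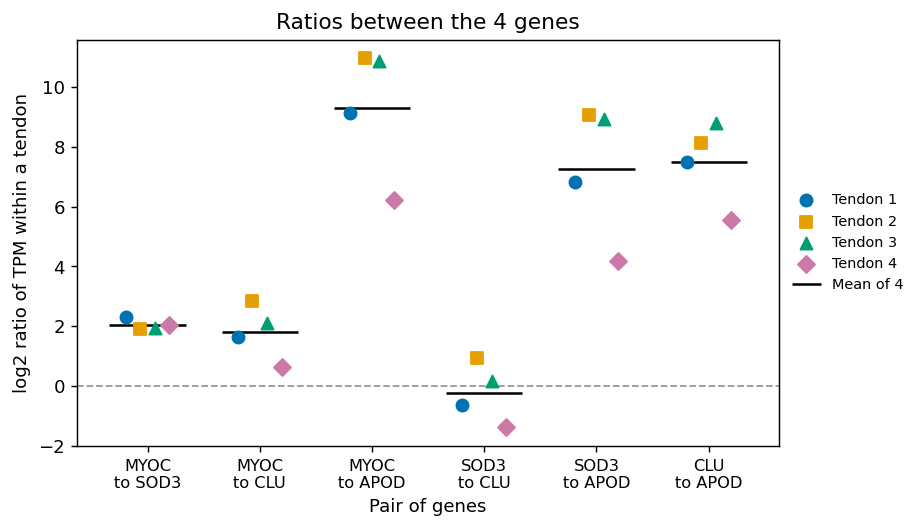
log2 ratio of TPM within a tendon for the 6 pairs of the 4 genes, 1 point per tendon, with the mean of 4 as a bar and a dashed line at equal levels. The MYOC to SOD3 points lie within 1.91 and 2.29, and the SOD3 to CLU points lie on both sides of 0.

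Genes most like each of the 4 were listed by the root mean square difference between centred log2(TPM + 1) profiles over the 4 tendons, among the 7004 other genes with a symbol that averaged 10 TPM or more. Each comparison rests on 4 points, and without tendon 3 or tendon 4 none of the 5 genes nearest to MYOC stayed among its nearest 5. The difference between MYOC and SOD3 was 0.15. It was smaller than that between SOD3 and any of the 7004 genes, and 2 genes were nearer to MYOC, ENPP3, which encodes an ectonucleotidase, at 0.11 and SULF2, which encodes a heparan sulfate sulfatase, at 0.11. ENPP3 had 17.3, 18.2, 37.2 and 14.5 TPM and SULF2 had 30.8, 34.02, 53.1 and 25.7 TPM in tendons 1 to 4. CAB39L, the scavenger receptor gene SCARA5 and TXNIP, whose product binds thioredoxin, followed at 0.17, 0.17 and 0.18. For SOD3 the nearest after MYOC were TPP2 (0.18), CBX7 (0.19), PTGES3L (0.21), ENPP3 (0.21) and CYP1B1 (0.23).

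For CLU the nearest profile was that of OSGIN1, a gene induced by oxidative stress, at 71.8, 37.1, 94.4 and 94.9 TPM in tendons 1 to 4 (difference 0.11). MTCP1 (0.12), the scavenger receptor gene STAB1 of macrophages and sinusoidal endothelium (0.12), CDO1, which encodes cysteine dioxygenase (0.15), and the acute phase gene SAA3 (0.19) followed. STAB1 had 27.1, 16.1, 37.1 and 42.1 TPM. For APOD no gene of the 7004 came within 0.25, a count that went to 200 without tendon 4. The nearest were CHI3L1 (0.58), the matrix gene POSTN (0.59), the muscle stress gene ANKRD1 (0.64), the developmental myosin gene MYH8 (0.64) and SPP1, which encodes osteopontin (0.69). POSTN had 327, 282, 246 and 1312 TPM, and SPP1 had 57.8, 63.5, 120 and 522 TPM. These 5 were picked for a profile like that of APOD, which is highest in tendon 4, so their own height there is no result.

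SOD3 was the most abundant of the measured enzymes that remove superoxide or peroxide. Of 16 symbols in that list 9 had an entry, SOD2 and the secreted peroxidase GPX3 not among them, and all 9 had a mean of at least 1 TPM. SOD1, the cytoplasmic dismutase, had 242, 292, 275 and 230 TPM in tendons 1 to 4, a mean of 260 ± 28.7 TPM (SD, n = 4). Catalase (CAT) had 53.5 ± 14.3 TPM, peroxiredoxin genes PRDX1 and PRDX6 had 447 ± 37.2 and 257 ± 16.7 TPM, and CP, which encodes the copper-binding ferroxidase ceruloplasmin, had 499 ± 169 TPM. Of the 8 genes other than SOD3, 1, CP, reached a 2-fold range (2.28), as 10.8% of the 8729 genes did, and none was highest in tendon 3, as 15.4% of the 8729 genes were. CP, as a ferroxidase, was only counted with these enzymes, and the widest range without it was 1.71, for CAT. Counts this small do not set the list apart from other genes. The median range of the 8 genes was 1.31. The 5 genes of copper delivery, including the carrier ATOX1 at 100.4 ± 12.4 TPM and the exporter gene ATP7A at 11.2 ± 1.68 TPM, had 0 of 4 tested members with a 2-fold range.

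MYOC stood far above the other genes with an olfactomedin domain, and the latrophilin receptor genes counted with them. Of 16 symbols 10 had an entry, and the 9 besides MYOC summed to 188, 182, 230 and 306 TPM in tendons 1 to 4. The highest of them, OLFML2A, had 76.5, 53.2, 114 and 87.8 TPM, highest in tendon 3 as MYOC was and lowest in tendon 2. OLFML2B had 45.4, 61.03, 43.1 and 130 TPM, OLFML1 had 30.8 ± 7.67 TPM and the receptor gene ADGRL2 had 29.2 ± 2.02 TPM (SD, n = 4). OLFML2A and OLFML2B were the 2 of 4 tested genes with a 2-fold range, as 10.8% of the 8729 genes had. OLFML2A had 1.92 in TMM-normalised CPM, which left 1 of 4, against 10.1% of the 8729 genes. Counts this small do not set the family apart from other genes.

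Glucocorticoids are a known inducer of MYOC in the eye, and responsive genes were listed for that reason. Of 13 symbols 10 had an entry, and 8 of these 10 were highest in tendon 1, against 42.9% of the 8729 genes. MYOC was not, as it was highest in tendon 3. The list summed to 1671, 666, 810 and 676 TPM in tendons 1 to 4, and 7 of 10 had a 2-fold range, against 10.8% of the 8729 genes. DDIT4, a stress-induced inhibitor of growth signalling, had 564, 74.4, 129 and 104 TPM. FKBP5, a chaperone gene of the receptor complex, had 26.0, 11.2, 9.65 and 11.3 TPM, and TSC22D3 had 377, 239, 241 and 231 TPM. The receptor gene NR3C1 had 157, 93.3, 125 and 87.2 TPM. HSD11B1, whose product regenerates active glucocorticoid, was the 1 gene of the list of 10 highest in tendon 3, at 26.1, 20.1, 49.5 and 32.7 TPM. Of the 8729 genes, 15.4% were highest in tendon 3, so nothing is read from that match. HSD11B1 was lowest in tendon 2, while MYOC was lowest in tendon 4.

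CLU was also the highest of its companions, the extracellular chaperones and complement regulators, for which 7 of 14 symbols had an entry. SERPINF1, a secreted serpin, had 826, 438, 597 and 339 TPM in tendons 1 to 4, an order unlike that of CLU. The complement protease genes C1S and C1R were highest in tendon 4, as CLU was, with 163, 115, 227 and 244 TPM for C1S and 45.2, 63.1, 80.6 and 173 TPM for C1R. Their inhibitor SERPING1 was steady at 186 ± 11.3 TPM (SD, n = 4). A2M, another extracellular chaperone, had 0.908 ± 0.289 TPM. Of 4 tested genes 3 had a 2-fold range, and 2 in TMM-normalised CPM, where the shares over the 8729 genes were 10.8% and 10.1%. C1S and C1R were the 2 of these 4 genes highest in tendon 4, against 27.6% of the 8729 genes. Counts this small do not set the list apart from other genes. Among receptors for clusterin and apolipoproteins, with 8 of 10 symbols entered, LRP1 led at 419 ± 130 TPM and LRP6 had 40.8 ± 8.38 TPM. LRP2, which takes up clusterin in the kidney, was near 0 at 0.0317 TPM, and 1 of 4 tested receptors, VLDLR, had a 2-fold range (2.48).

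Among lipocalins and apolipoproteins, 8 of 13 symbols had an entry, APOE and PTGDS not among them. RBP4, the plasma carrier of retinol, had 273, 195, 237 and 207 TPM in tendons 1 to 4. LPL, which releases fatty acids from lipoproteins, and PLTP, a phospholipid carrier, were highest in tendon 4 as APOD was, with 34.01, 96.5, 95.9 and 312 TPM for LPL and 37.0, 32.9, 50.6 and 79.2 TPM for PLTP. They were 2 of 3 tested genes, against 27.6% of the 8729 genes and 37.8% of those with a 2-fold range. Counts this small do not set the list apart from other genes. The other 4 genes, APOA1, APOB, APOC1 and APOC3, were each under 1 TPM in the mean.

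Marker lists of several cell types differed between the same tendons. Fewer cells of a type and less RNA per cell cannot be told apart in ground tissue, and with 1 tendon per animal neither can animal, residual tissue and library. In tendon 3, where MYOC and SOD3 were highest, the tenocyte list (9 of 12 symbols entered, collagens included) had its lowest sum, with 46155, 35898, 17241 and 19350 TPM in tendons 1 to 4. COL1A1 and COL1A2 have the highest means in that sum, and by gene 3 of 8 tested were lowest in tendon 3 and 4 in tendon 4, where MYOC and SOD3 were lowest. The shares of all genes lowest in these tendons are not given here, so nothing is read from those counts. TNMD had 158, 169, 31.7 and 187 TPM, while MKX had 169, 117, 90.4 and 73.8 TPM and FMOD, a collagen-binding proteoglycan gene, had 7860, 9278, 3808 and 3002 TPM. The endothelial and mural list (10 of 11) had its highest sum there, with 548, 619, 767 and 733 TPM, and 6 of its 10 tested genes were highest in tendon 3, against 15.4% of the 8729 genes and 12.6% of those with a 2-fold range. Of these 10 genes 9 were lowest in tendon 1, as 23.7% of the 8729 genes were, while MYOC and SOD3 were lowest in tendon 4. The interstitial and sheath fibroblast list (7 of 12) was also highest in tendon 3, with 918, 859, 1416 and 1369 TPM. Its genes did not share 1 order, as 2 of 7 were highest in tendon 3, 3 in tendon 4 and 1 each in tendons 1 and 2. PCOLCE2, a collagen processing enhancer gene, was the 1 gene of the list highest in tendon 3 and lowest in tendon 4, at 302, 192, 435 and 185 TPM. The part of any of these cell types in the MYOC and SOD3 levels was not tested.

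CLU ran in the order of the macrophage list, 4 above 3 above 1 above 2. That list (10 of 10 symbols entered, none at 0 in any tendon) summed to 96.7, 80.3, 187 and 261 TPM in tendons 1 to 4, below the level of CLU itself in each. Its defining genes CSF1R, CD68 and C1QC had means of 25.4, 21.2 and 26.6 TPM, and 6 of 7 tested genes were highest in tendon 4, against 27.6% of the 8729 genes and 37.8% of those with a 2-fold range. MRC1 was highest in tendon 3, and 5 of the 7 were lowest in tendon 2 as CLU was, CD14 and C1QB being lowest in tendon 1. In TMM-normalised CPM 4 of the 7 were lowest in tendon 2. The shares of all genes lowest in tendon 2, or in the order of CLU, are not given here, so nothing is read from either match. The part of these cells in the CLU level was not tested.

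Tendon 4, where APOD was highest, also held the highest sums of the adipocyte list (5 of 8), at 216, 307, 452 and 727 TPM in tendons 1 to 4, and of the macrophage list. CIDEC, a lipid droplet gene, had 2.48, 6.24, 20.9 and 74.8 TPM. Muscle genes (12 of 14) summed to 7899, 31261, 16321 and 21526 TPM, but those of fast fibres were highest in tendon 4, with MYH2 at 0.548, 0.922, 1.01 and 240 TPM. The nerve sheath list (12 of 12) had its lowest sum there, at 395, 319, 366 and 295 TPM. That sum rests largely on PMP22, which had 253, 218, 255 and 169 TPM. S100B, also expressed by adipocytes, had 7.39, 6.67, 10.5 and 33.8 TPM, and KRT19 had 0.938, 0.901, 2.54 and 8.81 TPM. The other genes of the list were highest in tendons other than tendon 4. SOX10, a transcription factor gene of Schwann cells, had 0.276 TPM in the mean. Of the 7 fibroblast genes 3, DPT, LUM and CD34, were highest in tendon 4, and 2 in TMM-normalised CPM, against 27.6% of the 8729 genes in TPM. Counts this small do not set the list apart from other genes. DPT had 41.6, 49.2, 111 and 204 TPM, while PCOLCE2 was lowest in tendon 4. The part of these cell types in the APOD level was not tested. Cartilage genes (7 of 10) were highest in tendon 1, at 912, 465, 374 and 309 TPM, an order that none of the 4 genes followed.

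**Figure D5:**
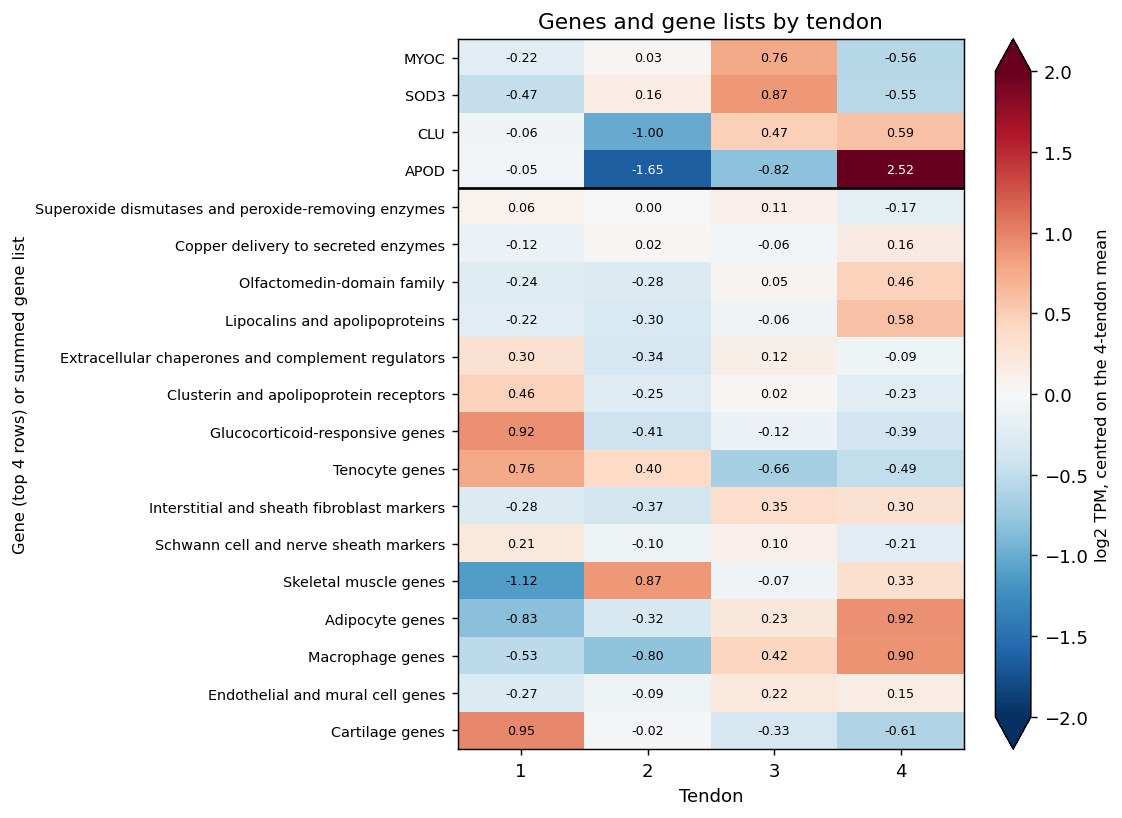
log2 TPM in tendons 1 to 4, centred on the mean of 4, for the 4 genes (top rows) and for the sums of 15 gene lists without them (lower rows); the colour scale stops at 2 on either side of 0. Tendon 3 is the highest for MYOC and SOD3 and the lowest for the sum of tenocyte genes, and tendon 4 is the highest for APOD, CLU, adipocyte and macrophage genes.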

How the data were processed

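Poly(A) RNA of 4 tendons was measured. The authors deposited a table of estimated counts by transcript, unscaled, with transcript lengths. Per the submitters' processing notes, kallisto 0.42.4, bcl2fastq, FastQC and the build OryCun2.0 were used; what each did, the filters and whether strand was read are not given in the sources used here. Estimated counts were summed per gene. TPM was computed here from annotated lengths, and CPM without them. Counts rounded to whole numbers gave TMM factors and the coefficient of variation in edgeR 4.0.16 (an intercept alone, genes reaching 1 CPM in 2 or more tendons) and size factors in DESeq2 1.42.0, under R 4.3.3. Python 3.11.15, numpy 2.4.6, pandas 2.3.3 and matplotlib 3.10.9 did the rest. Fold ranges were counted over genes averaging 10 TPM or more; the range count, dispersion and profile measure were tested on simulated data. No group contrast exists, so no difference was tested; Dixon's ratio was used only to pick out values in which 1 tendon lay far from the others.

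Named genes were the 4 genes, the genes next to them in mean TPM, the 5 nearest profiles of each, up to 4 genes per list by mean TPM, and genes that make up a count of at most 5; further genes named with marker or companion lists were picked after their values were seen. The members and lists were chosen with earlier results of these data known. Alternatives were other units and scalings, TPM without mitochondrial or non-coding entries, other filters and pseudocounts, each tendon left out, and, added after seeing the data, effective lengths for assumed fragments of 200 bases over transcripts of at least 300 bases. Sequences of these genes were not used here.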

Additional observations from a re-analysis of the deposited data

Results flagged for a closer look

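Dixon's ratio, the gap of the most distant tendon over the range of all 4, was computed for 30 values and passed its critical value at the 95% level for 3, where chance gives about 1.5. MYOC, SOD3, CLU and APOD were selected for differing between these tendons, so for them and their sum the ratio is a description and supports nothing. APOD in TPM stood apart through tendon 4 (0.881, with 64.6 TPM against at most 10.9), but on log2(TPM + 1) its ratio was 0.643. The summed share of the 4 genes stood apart through tendon 3 (0.881, with 1.79% against at most 1.01%). The glucocorticoid-responsive list stood apart through tendon 1 (0.856, with 1671 TPM against at most 810 TPM). DDIT4 made up 564 TPM of that sum in tendon 1 and at most 129 TPM in any other tendon. The ratio of the list without DDIT4 is not given here.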

How the results depend on the processing

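No paired analysis was possible because the design holds 1 group. Of 206 alternative values, 165 stayed within the spread between tendons or within 1.5 times the count reported. Another 39 moved further and 2 changed sign. Some of the 165 could not move, such as the ratios between genes in TPM over protein-coding transcripts, so their number does not measure robustness. The APOD mean fell from 21.4 to 6.95 TPM without tendon 4, which is still within its SD of 29.0. The mean of SOD3 was 754 CPM and 753 in TMM-normalised CPM, scales without length correction. On the scale of counts divided by DESeq2 size factors, means were 268491 (MYOC), 19933 (SOD3), 56410 (CLU) and 566 (APOD). Leaving out each tendon in turn, fold ranges ran from 1.51 to 2.50 (MYOC), 1.63 to 2.68 (SOD3), 1.58 to 3.02 (CLU) and 3.02 to 18.0 (APOD). The mean log2 ratio of MYOC to SOD3 was 3.79 in CPM and 1.71 with effective lengths. That of SOD3 to CLU was -1.53 in CPM, turned to 0.0446 with effective lengths, and ran from -0.627 to 0.140 with each tendon left out, positive without tendon 4. Genes with a 2-fold range numbered 940, and 2723 over genes averaging 1 TPM or more, 204 over those averaging 100 TPM or more, and 472 to 822 without each tendon, lowest without tendon 1; fewer or more genes enter the first 2 of these. Of the 5 nearest profiles, MYOC kept 5 in TMM-normalised CPM and 0 without tendon 3 or tendon 4; APOD kept 5 and, without tendon 4, 0; SOD3 and CLU each kept 3 in TMM-normalised CPM, and SOD3 kept 0 without tendon 1 or tendon 3 and CLU 0 without tendon 2.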

Other observations

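The genes beside MYOC, SOD3 and CLU on the chromosome had lower levels than these 3 genes. VAMP4, which encodes a vesicle fusion protein, ends 44.2 kb before MYOC and had 95.9, 76.02, 84.7 and 67.6 TPM in tendons 1 to 4, and PRRC2C starts 33.2 kb after it and had 58.1 ± 13.8 TPM (SD, n = 4). CCDC149, on the opposite strand and 8.11 kb past the end of the SOD3 model, had 15.4 ± 0.907 TPM, with a range of 1.14-fold. SCARA3, a scavenger receptor gene 19.6 kb before CLU, was an abundant neighbour, at 172, 160, 196 and 199 TPM, a range of 1.24-fold in the same order of tendons as CLU. Its values in tendons 1 and 2 are close enough for their order to come from the scale, so nothing is read from that match. PPP1R2, a phosphatase inhibitor gene 10.3 kb before APOD, had 52.2, 47.9, 46.2 and 61.1 TPM, highest in tendon 4 by a range of 1.32-fold. BDH1, a ketone body enzyme gene 73.0 kb after APOD, had the widest range of the neighbours given here, 2.30-fold, and was highest in tendon 2 at 75.6 TPM, where APOD was lowest. These neighbours were chosen by position after the data had been seen.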
